A study of Mus musculus with 13 samples.

Results

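Kinesins are motor proteins that use ATP to move along microtubules or to take their ends apart. The genes described here are all those listed under a name of Kif followed by a digit, apart from Kif21a and Kif21b. They were chosen by name and not by their values, and came to 35 of the 21553 genes with an expression value in mouse cerebellum. Of these, 34 had entries in the splicing table, with 1157 of its 283765 events. Sam68, encoded by Khdrbs1, is an RNA-binding protein that takes part in the choice of splice sites, and the study followed its role in splicing as the cerebellum develops. The libraries came from knockout (KO) cerebella at postnatal day 1 (P1, n = 3) and P10 (n = 3), and from wild-type (WT) cerebella at P1 (n = 2), P10 (n = 2) and P30 (n = 3). All mice had a C57BL/6 background. The labels name neither the knockout allele nor the animals behind each library, so the spread between libraries may be technical, and KO mice at P30 were not analysed here.

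Kinesins fall into families by what they carry or what they build. Mitotic kinesins push spindle poles apart, move chromosomes, trim microtubule ends and close the midzone at cytokinesis, and they are made in cells that divide. In the cerebellum the dividing cells after birth are mostly granule cell precursors of the external granule layer, which leave the cycle during the first postnatal weeks. Transport kinesins of the kinesin-1, kinesin-2 and kinesin-3 families carry vesicles, mitochondria and ciliary cargo, and neurons need them along axons and dendrites for life. The 35 genes were sorted by known role into 11 mitotic, 13 transport and 11 other kinesins, the last holding ciliary, centriolar and depolymerising motors. The sorting was made with earlier results of these data known. Kif12 and Kif2b were listed at 0 in all 13 libraries, and the other 33 reached a mean of 1 cRPKM in at least 1 group and were tested. The unit, cRPKM, is a read density per kilobase of mappable transcript, scaled to the library's total, so levels of different genes can be set beside each other.

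Splicing of several kinesins changed with age, and the exons that carry those changes are shown first. In each line the exon is in capitals, and the 12 bases of the neighbouring exons that flank it in the transcript are in lower case. They were read from the GRCm38 genome on the gene's own strand, at chr11:53590717-53590725 for the Kif3a exon, chr13:46780626-46780664 for Kif13a, chr4:149261160-149261201 for the longer Kif1b exon, and chr1:93034546-93034572, chr1:93026832-93026855 and chr1:93065552-93065578 for Kif1a exons A, B and C. Kif3a lies on the plus strand and the other genes on the minus strand. Each exon has a length that is a multiple of 3.
Kif3a 9 nt: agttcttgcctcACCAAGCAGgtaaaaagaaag
Kif13a 39 nt: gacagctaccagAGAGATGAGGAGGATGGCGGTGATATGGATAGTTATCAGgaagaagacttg
Kif1b 42 nt: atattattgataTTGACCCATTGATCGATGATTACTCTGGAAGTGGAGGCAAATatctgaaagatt
Kif1a exon A 27 nt: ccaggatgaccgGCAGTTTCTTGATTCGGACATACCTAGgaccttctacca
Kif1a exon B 24 nt: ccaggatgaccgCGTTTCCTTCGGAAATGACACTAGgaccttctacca
Kif1a exon C 27 nt: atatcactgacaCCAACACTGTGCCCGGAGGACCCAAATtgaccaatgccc
Exons A and B of Kif1a sit between the same flanking bases, so each can fill the same gap in the transcript.

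Depth and identity of the libraries were as follows. The exon junction reads of a library are its inclusion and exclusion reads added over all listed exon events. A read shared by several events is counted for each, and junctions outside these events are not counted. These sums ran between 10538517 and 18423325, and 6577 to 11033 genes were listed at 0, most in the P1 KO library 15. Khdrbs1 stood at 1.28 to 8.50 cRPKM in the 6 KO libraries and at 29.50 to 74.40 cRPKM in the 7 WT libraries, without overlap. The granule cell lineage genes Neurod1 (48 to 477 cRPKM) and Zic1 (100 to 322 cRPKM) and the Purkinje cell gene Pcp2 (53 to 752 cRPKM) were present in every library, and the mature granule cell gene Gabra6 stood at 0 to 0.36 cRPKM at P1. In library 15, 7 kinesins were listed at 0. One of them, Kif4, had 549 exon junction reads there, or 43.8 junction reads per 1000000 (RPM) against 37.3 and 42.3 RPM in the other P1 KO libraries, so a listed 0 in that library is not an absence of reads.

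The largest change in level among the kinesins was the fall of the mitotic motors in WT cerebellum at P30 relative to P10. Of the 11 mitotic kinesins, 9 fell at P30 relative to P10, against 14.7% of all 14063 genes tested that changed in either direction and 9.73% that fell (limma, Benjamini-Hochberg adjusted p below 0.05). The 11 had a median log2 difference of -2.68 on the log2(cRPKM + 1) scale, beside -0.13 over all genes. Of the 13 transport kinesins 1 rose, against 5.02% of all genes, and 1 fell, with a median of 0.07, and none of the 9 other kinesins tested changed, with a median of -0.47. In all, 24 of the 33 kinesins had P30 and P10 libraries that did not overlap, against 55.1% of all genes.

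Kif11, the motor that slides the spindle poles apart, stood at 0.38, 0.10 and 0.14 cRPKM at P30, against 11.44 and 21.86 cRPKM at P10. Its log2 difference was -3.81 (SE 0.36, adjusted p 3.1e-05 by limma). All 3 P30 libraries lay far below every earlier library, where the lowest value was 8.49 cRPKM in WT P1 library 8. Kif22, a chromokinesin that pushes chromosome arms outward, stood at 0.45, 0.61 and 1.80 cRPKM at P30, against 11.21 and 10.78 cRPKM at P10 (log2 difference -2.68). Kif2c, which takes microtubules apart at kinetochores, was listed at 0, 0 and 0.12 cRPKM at P30, against 9.09 and 10.86 cRPKM at P10 (log2 difference -3.40). The 3 genes thus ended at or near 0, with no overlap between ages.

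The motors of the spindle midzone and of cytokinesis went the same way. Kif20a, which brings the chromosomal passenger complex to the midzone, stood at 1.26, 0.39 and 0.39 cRPKM at P30, against 18.06 and 14.75 cRPKM at P10 (log2 difference -3.41). Kif23, the motor of centralspindlin, stood at 0, 0.14 and 0.10 cRPKM at P30, against 5.86 and 8.99 cRPKM at P10 (log2 difference -2.94). Neither gene overlapped between the ages. Kif20b, another cytokinesis motor, stood at 0.65, 0.22 and 0.36 cRPKM at P30, against 5.63 and 7.58 cRPKM at P10, and fell by 2.43. Kif14, which works with citron kinase at the midbody, was low throughout, at 0, 0.03 and 0 cRPKM at P30 against 0.65 and 1.69 cRPKM at P10, and did not pass the test (-1.06, adjusted p 0.0922 by limma). Kif4, a chromokinesin that binds the midzone with Prc1, did not pass it either (-2.37, adjusted p 0.060), at 0.11, 0 and 0.15 cRPKM at P30 against 3.31 and 6.25 cRPKM at P10.

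The remaining mitotic motors act on microtubule ends or in support of Kif11. Kif18b, which shortens astral microtubules, stood at 0.14, 0 and 0 cRPKM at P30, against 10.33 and 10.50 cRPKM at P10 (log2 difference -3.45). Kif18a, which dampens chromosome movements on the way to the metaphase plate, stood at 1.22, 0.22 and 0.10 cRPKM at P30, against 8.50 and 5.31 cRPKM at P10, and also fell by 2.43. Both lay well apart between the ages. Kif15, a spindle motor that can take over from Kif11, stood at 0.10, 0.78 and 0.14 cRPKM at P30, against 3.00 and 6.89 cRPKM at P10 (-2.10, adjusted p 0.00632 by limma). The libraries of Kif15 did not overlap, yet its call ended when P10 library 6 was left out (-1.61, adjusted p 0.0831). The calls of the other 8 held in every alternative setting tried that gave a value.

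**Figure D1:**
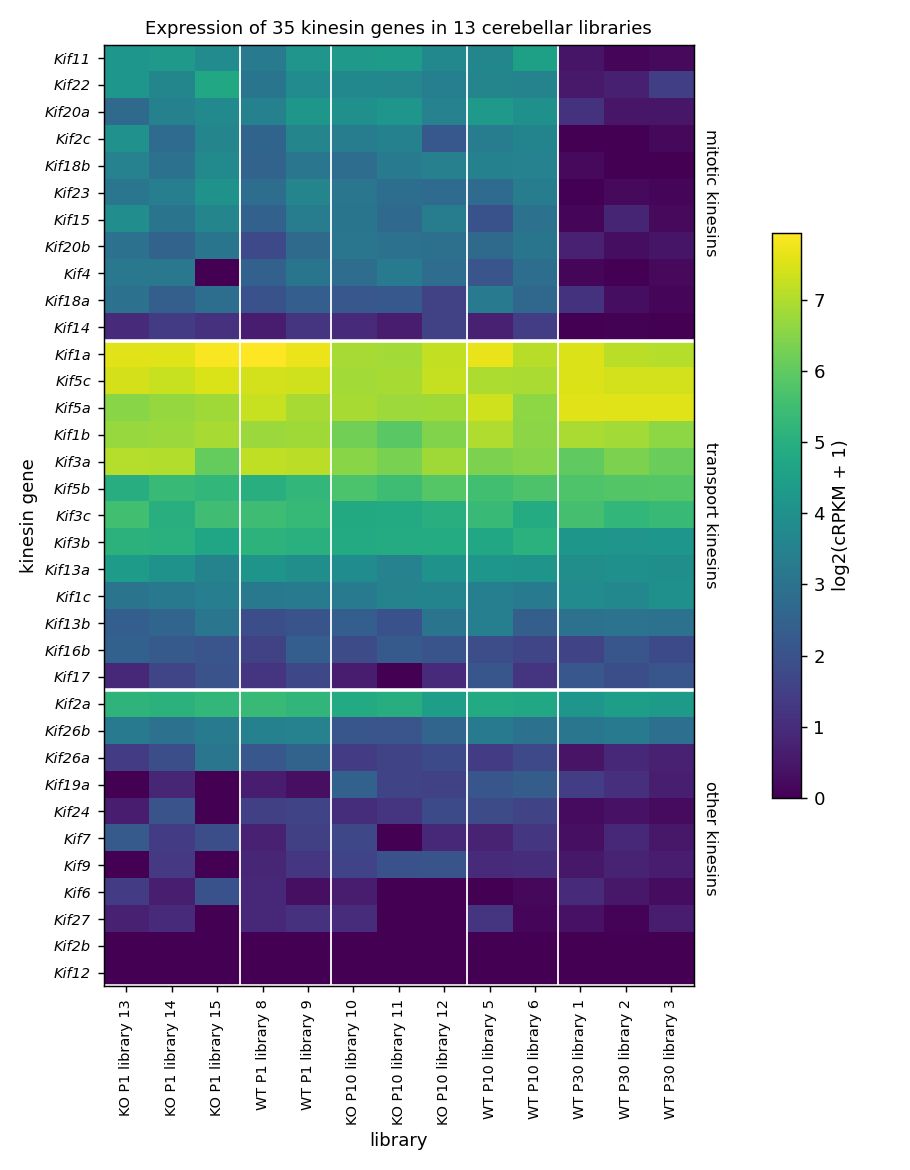
Levels of the kinesins in log2(cRPKM + 1) by group and library, grouped by role, with each library as its own value. Apart from Kif14, which was low throughout, and Kif4, listed at 0 in P1 KO library 15, the mitotic kinesins are low in the 3 P30 libraries alone, for example Kif11 at 0.10 to 0.38 cRPKM.

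Set against P1, the change in WT cerebellum was wider. At P30 15 kinesins were called relative to P1, against 25.4% of all genes, and 14 of them fell, against 15.8%, while 1 rose, against 9.66%. Of the 11 mitotic kinesins 10 fell, from -3.43 for Kif11 to -1.66 for Kif18a, with a median of -2.66 beside -0.13 over all genes. At P1 Kif11 stood at 8.49 and 16.76 cRPKM, Kif20a at 10.19 and 17.26 cRPKM and Kif23 at 6.26 and 11.26 cRPKM. These levels overlapped those at P10 and lay far above those at P30. Kif22 stood at 7.41 and 13.29 cRPKM at P1, Kif2c at 4.90 and 11.12 cRPKM and Kif18b at 4.74 and 7.64 cRPKM, and in all of them library 8 was the lower. Kif15 was at 4.50 and 9.0 cRPKM, Kif4 at 4.52 and 7.49 cRPKM, Kif18a at 3.00 and 4.16 cRPKM and Kif20b at 2.37 and 5.64 cRPKM, each without overlap with P30. The call of Kif4 (-2.66) ended without WT P1 library 8 or 9 or any 1 of the 3 P30 libraries, with an adjusted p of 0.0554 to 0.177 by limma. That of Kif18a ended without WT P1 library 9 (-1.48, adjusted p 0.0813).

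Outside the mitotic group 5 kinesins changed between P30 and P1. Kif5b, the widely expressed kinesin-1 chain, stood at 53.31, 55.19 and 56.61 cRPKM at P30, against 30.28 and 37.19 cRPKM at P1, and rose by 0.70 (adjusted p 0.0104 by limma), a call that ended without P1 library 8 (0.55, adjusted p 0.0991). Kif2a, a neuronal depolymerase that limits the growth of axon branches, stood at 16.86, 20.37 and 18.93 cRPKM at P30, against 39.67 and 36.20 cRPKM at P1, and fell by 0.98. For both genes the ages lay apart. Kif3a, a motor subunit of kinesin-2, stood at 62.78, 81.14 and 69.04 cRPKM at P30, against 144.52 and 136.52 cRPKM at P1 (-0.98). Kif3b, its partner, fell by 0.90, with 33.72 and 31.67 cRPKM at P1. Kif26a stood at 0.33, 0.89 and 0.67 cRPKM at P30, against 3.45 and 4.79 cRPKM at P1 (-1.65). Neither Kif3a nor Kif26a kept its call when P1 library 8 or 9 was left out.

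Between P10 and P1 no kinesin was called in WT, against 4.05% of all genes. At an unadjusted p below 0.05 in limma 5 of 33 passed, against 16.3% of all genes. By the junction reads described next 7 were called, against 23.7% of all genes: Kif19a (2.56) and Kif5b (0.71) rose, and Kif27 (-1.38), Kif26a (-1.06), Kif3a (-0.77), Kif1a (-0.54) and Kif2a (-0.47) fell.

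**Figure D2:**
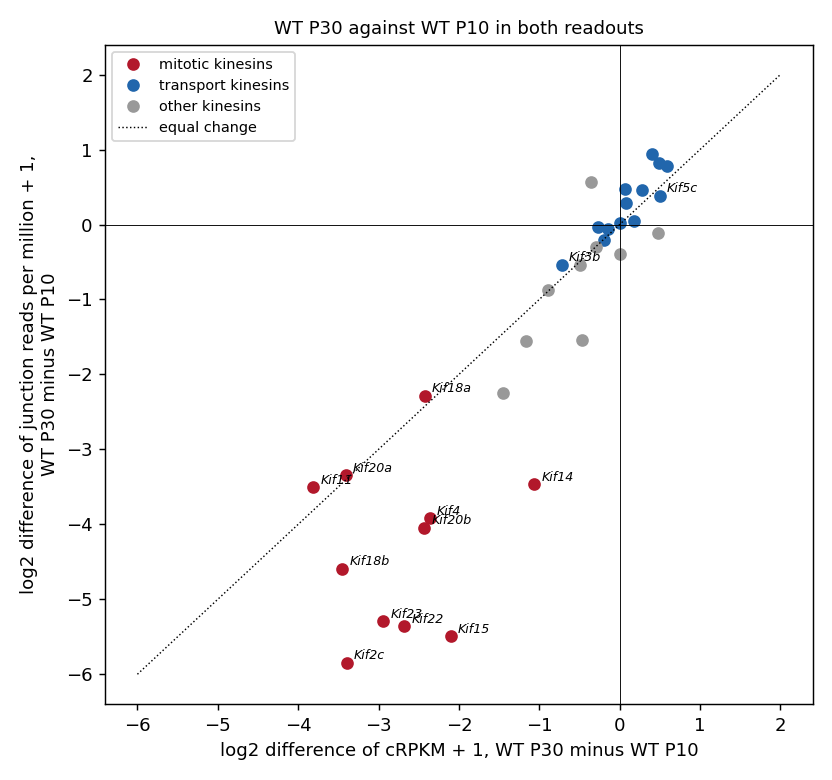
Log2 difference between P30 and P10 in WT cerebellum for each kinesin, by cRPKM on the horizontal axis and by exon junction reads (RPM) on the vertical axis, both in log2 units. The mitotic kinesins lie in the lower left on both measures, and the junction differences reach -5.85 for Kif2c.

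A second measure from the splicing table gave the same direction. The exon junction reads defined above were added per gene, given as RPM of the library's sum and tested on the log2(value + 1) scale. All 11 mitotic kinesins fell at P30 relative to P10 by these reads, against 44.2% of the 11334 genes with such reads called in either direction. The differences ran between -5.85 for Kif2c and -2.28 for Kif18a, with -5.49 for Kif15, -5.36 for Kif22, -5.30 for Kif23, -3.92 for Kif4 and -3.47 for Kif14. Both measures come from the same reads, so they do not replicate each other. By junction reads 5 of the other kinesins fell as well, among them the centriolar Kif24 (-2.25), the ciliary hedgehog regulator Kif7 (-1.54) and the microtubule depolymerase Kif2a (-0.54).

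The scaling of the libraries bears on the smaller changes. The median difference of all genes between P30 and P10 was -0.13 as deposited and 0.03 after median-ratio scaling, and the share of higher genes among those called was 34% and 52.4%. Between P30 and P1 the medians were -0.13 and 0, and the shares 38% and 48.4%. Under that scaling 11 kinesins were called between P30 and P10, with the same 9 mitotic kinesins lower. Kif3b then lost its call (-0.51, adjusted p 0.0931 by limma), and Kif5a gained one (0.81, adjusted p 0.0196). Between P30 and P1 it called 17, with Kif5a (0.65) and Kif1c (0.79) added to the 15.

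Genes that work with the mitotic motors moved with them. A list of 22 spindle and cell cycle partners was chosen with earlier results of these data known. Of these 20 fell at P30 relative to P10, against 9.73% of all genes, and 1 rose, against 5.02%. Their median was -3.01, beside -0.13 over all genes. Among those that fell were the proliferation marker Mki67 (-5.52), topoisomerase Top2a (-5.22) and cyclins Ccnb1 (-4.68) and Ccna2 (-4.64). Anln, an actin-binding protein of the cleavage furrow that oligodendrocytes also express, rose by 1.36, and citron kinase, Cit, the partner of Kif14, did not pass the test (0.21). Markers of granule cell precursors fell alongside, 4 of 5, against 9.73% of all genes, with Ccnd2 at -4.73 and Atoh1 at -3.25. Their mean log2 level was 1.17 to 1.53 at P30 and 4.39 to 4.44 in WT at P10, and Atoh1 itself was at 0.22, 0 and 0 cRPKM at P30. The part of cell number in the kinesins' fall was not tested, and in bulk tissue fewer cells of a type and less RNA per cell cannot be told apart.

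The promoters of 3 mitotic kinesins are shown because many genes of late mitosis carry a short element with the letters TTTGAA, the cell cycle genes homology region, often next to a CCAAT box. The windows are from RefSeq on GRCm38.p6, 250 bases before to 50 bases after the gene's start, on its own strand. They lie at chr11:102925075-102925374 on the minus strand for Kif18b, chr19:34922108-34922407 on the plus strand for Kif20b and chr7:127042371-127042670 on the minus strand for Kif22. Capitals mark TTTGAA and CCAAT, each on either strand, so that the reverse complements TTCAAA and ATTGG are in capitals as well.
Kif18b promoter: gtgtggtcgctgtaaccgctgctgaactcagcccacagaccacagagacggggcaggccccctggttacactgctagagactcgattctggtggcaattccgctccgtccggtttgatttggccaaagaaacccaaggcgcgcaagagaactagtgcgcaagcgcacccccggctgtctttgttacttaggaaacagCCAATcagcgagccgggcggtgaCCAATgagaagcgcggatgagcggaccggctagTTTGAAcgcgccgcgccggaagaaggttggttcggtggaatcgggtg
Kif20b promoter: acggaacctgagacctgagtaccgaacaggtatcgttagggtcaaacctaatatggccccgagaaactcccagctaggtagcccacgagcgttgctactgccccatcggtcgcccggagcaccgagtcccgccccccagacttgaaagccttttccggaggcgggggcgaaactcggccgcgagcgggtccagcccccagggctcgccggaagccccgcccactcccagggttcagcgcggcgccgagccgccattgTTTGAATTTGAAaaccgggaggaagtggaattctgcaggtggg
Kif22 promoter: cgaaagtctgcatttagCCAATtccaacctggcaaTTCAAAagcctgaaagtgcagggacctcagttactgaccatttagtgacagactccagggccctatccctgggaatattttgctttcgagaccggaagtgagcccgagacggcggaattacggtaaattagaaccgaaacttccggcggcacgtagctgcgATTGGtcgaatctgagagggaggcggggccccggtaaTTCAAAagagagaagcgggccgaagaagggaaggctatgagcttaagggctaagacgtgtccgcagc
Counted per gene, TTTGAA on either strand was found for 9 of the 10 mitotic kinesins with a window, against 1 of 10 transport and 2 of 10 other kinesins. It was found for 20.2% of all 27025 genes with a window of the same length, and in 17.9% of their 32851 windows. CCAAT on either strand was found for 6, 3 and 5 of 10 and for 41.1% of all these genes, and both sets of letters for 6, 0 and 2 of 10 and for 7.97%. Kif18a lacked TTTGAA in its window and fell all the same. A match describes the letters only, and says nothing of binding.

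Some mitotic genes kept intron reads at P30 while their spliced reads went away. Intron reads are the mean of the reads over the exon-intron junctions at both ends, added per gene. Intron and exon-to-exon reads are in RPM of the exon junction reads defined above. Kif22 had 12.7 ± 4.13 RPM of intron reads at P30 (SD, n = 3), against 6.97 ± 2.44 at P10 (SD, n = 2), and 3.81 ± 0.086 RPM of exon-to-exon reads against 76.4 ± 7.43. Its intron reads overlapped between the ages, at 8.34, 16.5 and 13.3 RPM at P30 against 8.70 and 5.24 RPM at P10, and its exon-to-exon reads did not. Kif15 had 3.40 RPM of intron reads at P30 and 6.46 at P10, with 1.30 and 93.8 exon-to-exon reads, and Kif20a had 2.41 and 4.25, with 2.07 and 115. The intron share of these reads was 75.9% ± 6.1 for Kif22, 71.0% ± 6.5 for Kif15 and 53.3% ± 13.8 for Kif20a at P30, against 8.4% ± 3.5, 6.4% ± 0.4 and 3.4% ± 0.9 at P10. In the other 8 mitotic genes intron reads were low at P30, for example 0.031 RPM for Kif11 against 2.02 at P10, and 0.01 for Kif2c against 1.67. The share also rose outside the mitotic group, on few reads, in Kif7 (26.2% ± 5.2 at P30, 8.3% ± 4.2 at P10) and Kif24 (28.7% ± 6.9 and 8.3% ± 0.4). In others, such as Kif27 (5.4% ± 3.8 and 12.9% ± 4.4), it was lower at P30. Pooled over the reads of all genes, the intron share was 1.47% to 2.94% at P30 and 1.57% to 2.62% in the other groups. Genes with many reads weigh most in that pooled share.

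These intron values are a description without a test. Kif22 overlaps the antisense gene Gm31749, Kif20a overlaps Cdc23 on the other strand, and Kif15 overlaps Gm47148 on its own strand (GENCODE M21). The library kit kept strand, per the labels, but whether the counting used it is not given in the sources used here, so reads of a kinesin and its neighbour cannot be told apart. The same holds for Kif7 with Ticrr, Kif18a with Mettl15, Kif4 with Pdzd11, Kif2a with Dimt1, Kif17 with Sh2d5 and Kif18b with Gm26668.

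**Figure D3:**
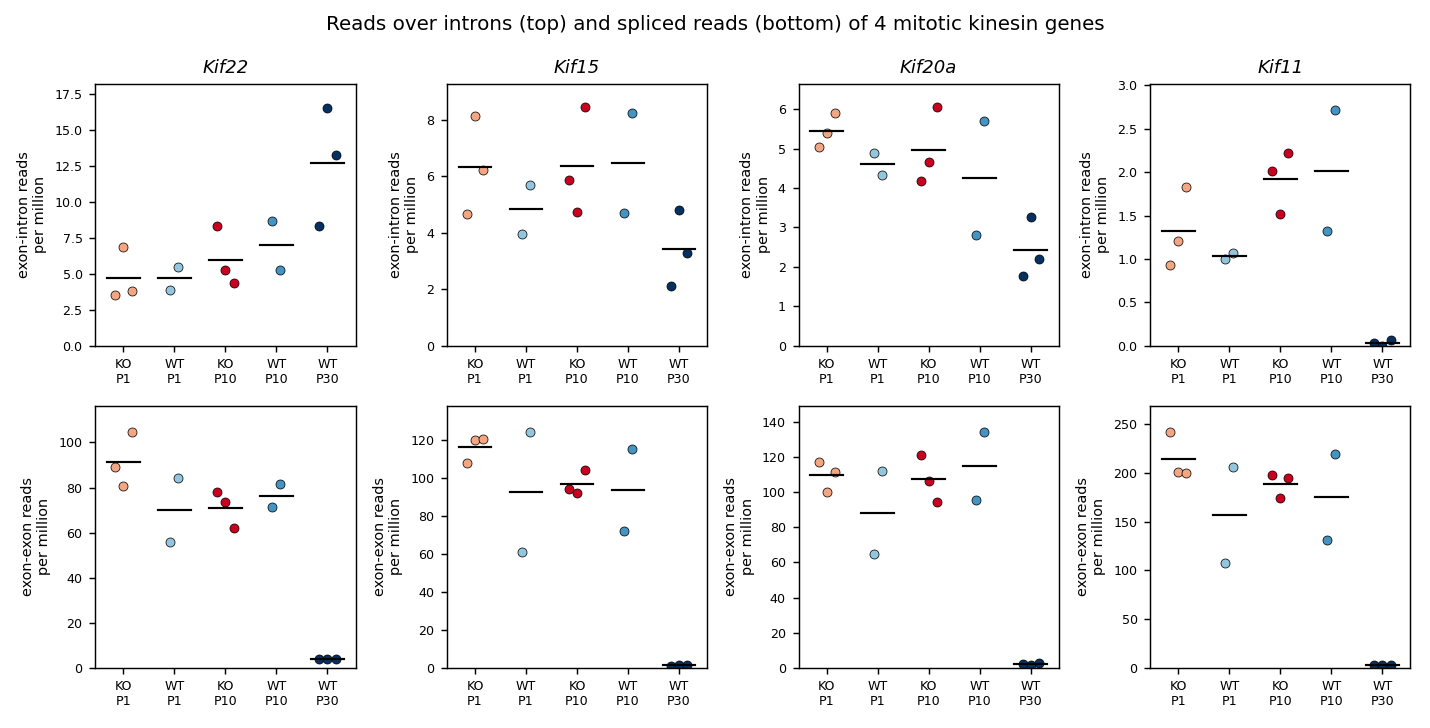
Intron reads and exon-to-exon reads in RPM for the mitotic kinesins Kif22, Kif15, Kif20a and Kif11 by group, with each library as a point. Exon-to-exon reads are far lower for each gene at P30, while Kif22, Kif15 and Kif20a keep intron reads of 12.7, 3.40 and 2.41 RPM.

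The most abundant kinesins were transport motors. At P30 the most abundant were the kinesin-1 heavy chains Kif5a (188 ± 1.82 cRPKM) and Kif5c (173 ± 9.66 cRPKM) and the synaptic vesicle precursor motor Kif1a (151 ± 26.4 cRPKM; SD, n = 3), and Kif5c and Kif1a overlapped. Kif1b, which carries mitochondria and vesicle precursors, followed at 110 ± 12.3 cRPKM. The kinesin-2 subunits, which form the motor for ciliary and axonal cargo, stood at 71.0 ± 9.33 cRPKM for Kif3a, 41.4 ± 5.14 for Kif3c and 17.0 ± 0.266 for Kif3b, and Kif5b at 55.0 ± 1.66 cRPKM.

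Kif5c stood at 183.71, 165.94 and 168.28 cRPKM at P30, against 123.97 and 119.91 cRPKM at P10, and rose by 0.50 (adjusted p 0.030 by limma). The ages did not overlap, and at P1 Kif5c was again higher than at P10 in WT, at 165.93 and 162.55 cRPKM. Kif3b stood at 17.33, 16.81 and 16.97 cRPKM at P30, against 25.26 and 32.64 cRPKM at P10, and fell by 0.72 (adjusted p 0.0172). The call of Kif5c ended whichever of the 5 libraries was left out (adjusted p 0.0616 to 0.125), and that of Kif3b ended without any 1 of them but P10 library 5 (adjusted p 0.0519 to 0.136). Kif5a stood at 190.43, 187.24 and 187.31 cRPKM at P30, against 162.73 and 95.47 cRPKM at P10 (0.59, adjusted p 0.0673), and by junction reads it rose by 0.79, as did Kif1c (0.83) and Kif17 (0.94), a dendritic vesicle motor. Markers of mature granule cells rose alongside, 4 of 4 at P30 relative to P10, where 5.02% of all genes rose and 9.73% fell. Their mean log2 level was 7.61 to 7.78 at P30 and 4.91 to 5.53 at P10. Purkinje cell markers rose too, 3 of 5, with a mean log2 level of 8.21 to 8.44 at P30 and 7.07 to 7.28 at P10, as did 2 of 6 oligodendrocyte markers, with 7.84 to 8.19 at P30 and 6.60 to 7.02 at P10. Of 5 markers of Bergmann glia and astrocytes 3 fell and 1 rose, with 6.37 to 6.70 at P30 and 7.34 to 7.46 at P10. The part of these cell types in the changes of the transport kinesins was not tested.

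**Figure D4:**
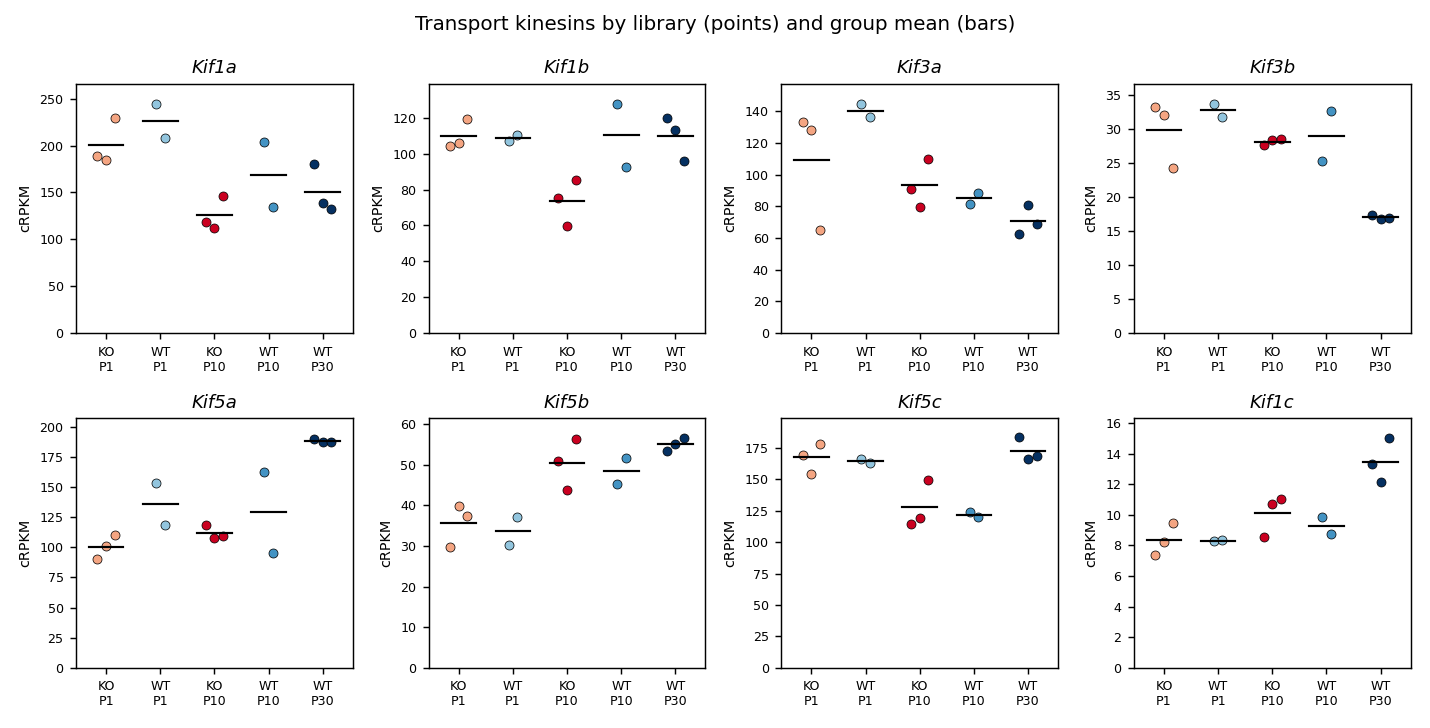
Levels of the transport kinesins Kif1a, Kif1b, Kif3a, Kif3b, Kif5a, Kif5b, Kif5c and Kif1c in cRPKM by group, with each library as a point. Kif5a lies at 187.24 to 190.43 cRPKM at P30 and Kif3b at 16.81 to 17.33 cRPKM, below its levels in every other group.

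The remaining kinesins had no call by cRPKM. Kif13a stood at 10.38 to 19.69 cRPKM over the 13 libraries, and the early endosome motor Kif16b at 1.96 to 4.51 cRPKM. Kif13b stood at 6.73, 7.09 and 6.78 cRPKM at P30, against 2.72 and 3.15 cRPKM at P1, and did not pass the test (1.0, adjusted p 0.0889 by limma). By junction reads Kif13b (0.93, adjusted p 0.000439) and Kif16b (0.39, adjusted p 0.0296) rose between the same ages, and Kif7 (-1.86) and Kif27 (-1.68) fell. In all 26 of the 33 kinesins were called there by junction reads, against 57.8% of all genes. Kif24, which works at the base of cilia, stood at 0.17, 0.31 and 0.18 cRPKM at P30, against 2.59 and 2.10 cRPKM at P10, and did not pass it by cRPKM (-1.45, adjusted p 0.0815). Kif6, Kif7 and Kif27 reached at most 3.00, 3.74 and 1.28 cRPKM in any library.

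Partners of the transport motors were also compared between P30 and P10. Of 22 tested light chains, adaptors and further kinesins outside the 35, 2 rose, against 5.02% of all genes, the light chain Klc2 (1.08) and the scaffold Mapk8ip2 (0.78). The 3 that fell, against 9.73% of all genes, were Kif21b (-3.05) and 2 mitotic motors, the minus-end motor Kifc1 (-4.01) and the kinetochore motor Cenpe (-2.87). Of 24 dynein and dynactin entries 4 were called, against 14.7% of all genes, with Dync1i1 (1.29) and Dynlt3 (1.23) higher and Actr1a (-0.74) and Dync1i2 (-0.72) lower. Both lists were chosen with earlier results of these data known.

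In KO cerebellum 5 kinesins changed between P10 and P1, against 10.2% of all genes. Kif19a, a depolymerase that sets the length of motile cilia in mice, stood at 4.49, 2.09 and 1.96 cRPKM at P10, against 0, 0.80 and 0 cRPKM at P1, and rose by 1.60 (adjusted p 0.0205 by limma). In WT it was at 3.34 and 4.12 cRPKM at P10 and 0.55 and 0.26 cRPKM at P1, and just missed the threshold (1.75, adjusted p 0.0588). By junction reads its rise was called in both genotypes, 2.60 in KO and 2.56 in WT. Markers of choroid plexus, a tissue with motile cilia, had a mean log2 level of 3.35 to 3.95 in KO at P10 and 0.93 to 3.42 in KO at P1. None of these 4 markers was called there, and they did not move together. Ttr was at 639.84, 433.42 and 268.75 cRPKM in KO at P10, against 7.32, 243.49 and 0 cRPKM at P1. Foxj1 was at 3.44, 2.75 and 2.57 cRPKM, against 2.22, 9.20 and 12.18 cRPKM. In WT the mean level of the markers was 3.37 and 0.66 at P10, against 1.77 and 1.2 at P1, and Kif19a was at 3.34 and 4.12 cRPKM in the same P10 libraries. At P30 the mean level was 0.91, 3.52 and 4.51, and Kif19a was at 1.73, 1.16 and 0.58 cRPKM. The part of choroid plexus in the changes of Kif19a was not tested.

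The other 4 changes in KO were smaller or rested on low values. Kif26b stood at 3.33, 3.26 and 5.04 cRPKM at P10, against 8.69, 7.02 and 8.67 cRPKM at P1, and fell by 0.92. Kif1a stood at 118.90, 112.23 and 146.59 cRPKM at P10, against 188.87, 184.94 and 229.43 cRPKM at P1, and fell by 0.67. Kif1b stood at 75.39, 59.53 and 85.21 cRPKM at P10, against 104.29, 106.12 and 119.53 cRPKM at P1, and fell by 0.59. In these 3 genes every P10 library lay below every P1 library. In WT none of them was called, with differences of -0.39 for Kif26b, -0.44 for Kif1a and 0.0036 for Kif1b. The WT libraries of Kif26b and Kif1a also lay lower at P10 without overlap, and junction reads called Kif1a in WT as well (-0.54). Kif9, a kinesin of motile cilia, stood at 2.03, 3.03 and 3.19 cRPKM at P10, against 0, 1.52 and 0 cRPKM at P1, and rose by 1.45, but by junction reads it had the opposite sign (-0.27, adjusted p 0.442 by limma). None of the 5 was called without P1 library 13 or without P10 library 10, and 1 was called without P1 library 15 or P10 library 11. By junction reads 10 kinesins were called, against 32.2% of all genes, among them Kif1a (-0.58), Kif1b (-0.52) and Kif2a (-0.48), which fell.

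Kinesin levels in KO and WT were next compared at each age, the comparison that bears on Sam68 itself. No kinesin was called at P1, against 0.0356% of all genes (5 of 14063), and none at P10, against 0.00711%. At an unadjusted p below 0.05 in limma, 0 of 33 kinesins passed at P1, against 6.78% of all genes, and 4 of 33 at P10, against 5.32%. Junction reads called none either, against 0.0265% of genes at P1 and 0.0176% at P10. The libraries of KO and WT did not overlap for 5 of 33 kinesins at P1, against 18.5% of all genes, and for 7 of 33 at P10, against 19%. At P10, Kif1b stood at 75.39, 59.53 and 85.21 cRPKM in KO, against 127.75 and 92.80 cRPKM in WT. The KO libraries lay below the WT ones without overlap, with a log2 difference of -0.58 (SE 0.18, unadjusted p 0.00795, adjusted p 0.884 by limma). By junction reads the difference was -0.53 (SE 0.17, adjusted p 0.231). At P1, Kif1b stood at 104.29, 106.12 and 119.53 cRPKM in KO and 106.90 and 110.37 cRPKM in WT, and these overlapped.

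The other 3 kinesins at P10 were Kif26b, Kif17 and Kif18a, none of them called after adjustment. Kif26b stood at 3.33, 3.26 and 5.04 cRPKM in KO, against 8.59 and 6.80 cRPKM in WT (-0.85, unadjusted p 0.00903 by limma). Kif17 stood at 0.56, 0 and 0.97 cRPKM in KO, against 3.32 and 1.32 cRPKM in WT (-1.12, unadjusted p 0.0296), but by junction reads it had the opposite sign (0.22, adjusted p 0.665). Kif18a stood at 3.43, 3.55 and 1.99 cRPKM in KO, against 8.50 and 5.31 cRPKM in WT (-0.98, unadjusted p 0.0322), and here too the junction reads had the opposite sign (0.21, adjusted p 0.76). By cRPKM the KO libraries lay below the WT libraries in each. For Kif26b the junction reads gave -0.82 (adjusted p 0.256). Junction reads also gave an unadjusted p below 0.05 at P10 for Kif5b (-0.55), Kif1a (-0.37), Kif5c (-0.34) and Kif9 (0.62), none called. Kif5b differed by 0.05 by cRPKM. At P1 they did so for Kif16b (0.42), Kif1c (-0.45) and Kif3a (-0.27), none called. The difference between the genotype effects at P10 and P1 was called for no kinesin, against 0.0142% of all genes, with unadjusted p below 0.05 for 3, Kif18a (-1.55), Kif9 (1.52) and Kif1b (-0.59), against 5.18% of all genes. By junction reads these differences were -0.14, 0.56 and -0.47, none with an unadjusted p below 0.05. Kif22 (-0.74, unadjusted p 0.0268 by limma) and Kif5b (-0.61, unadjusted p 0.0337) had one by junction reads, with an adjusted p of 0.72 for both. At P1 the 11 mitotic kinesins had a median difference of 0.41 between KO and WT, beside -0.04 over all genes, with none called. The WT P1 library 8 was low in many of them, with Kif11 at 8.49 cRPKM against 16.76 cRPKM in library 9, and its granule cell precursor markers had a mean log2 level of 3.52 against 4.54. None of the spindle, adaptor or dynein lists held a gene called between KO and WT.

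Splicing was then followed by percent spliced in (PSI), the share of reads that include an exon, retain an intron or use a site. An event was called at an adjusted p below 0.05 and a difference of 10 points or more. Between P30 and P1 in WT 28 of 80 kinesin events tested were called, against 10% of all events, and between P30 and P10 26 of 84, against 2.97%. Introns made up 22 of the calls in both, of 47 tested between P30 and P1, against 7.74% of all introns, and of 52 between P30 and P10, against 1.54%. In each comparison 11 of the 22 lay in Kif22, 5 in Kif15 and 3 in Kif20a. An intron of a mitotic gene passed the read minimum at P30 only where intron reads were left, so these counts support nothing. Among exons 6 of 26 were called between P30 and P1, against 16.8%, and 3 of 26 between P30 and P10, against 6.61%.

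The 9-nt microexon of Kif3a, the motor subunit of kinesin-2 shown above, left the transcript with age. Its PSI in WT was 97.4 and 97.8 at P1, 80.3 and 73.7 at P10, and 38.3, 46.0 and 47.6 at P30. The groups did not overlap, with 1389 to 2946 reads per library. The differences were -20.58 points between P10 and P1 (adjusted p 0.000137 by limma) and -33.07 points between P30 and P10 (adjusted p 0.00131). In KO the PSI was 81.8, 81.8 and 78.4 at P10, against 98.5, 97.1 and 97.3 at P1, a difference of -16.98 points (adjusted p 2.1e-05). KO and WT differed by 0.02 points at P1 and 3.63 points at P10 (adjusted p 1 at both). The introns on both sides of this exon, of 2648 and 3786 nt, had a mean PSI of 15.9 and 45.7 at P30 and of 7.5 and 17.5 at P10, and their spliced reads are reads that include the exon, so these events share reads.

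The 39-nt exon of Kif13a, a kinesin-3 that moves endosomes, entered the transcript over the same time. Its PSI in WT was 3.5 and 3.0 at P1, 16.4 and 12.6 at P10, and 49.5, 50.5 and 49.4 at P30. The ages did not overlap, with 353 to 620 reads per library. The differences were 11.22 points between P10 and P1 (adjusted p 0.00917 by limma) and 35.24 points between P30 and P10 (adjusted p 0.000737). The call between P10 and P1 ended without WT library 8, 9 or 5 (adjusted p 0.0629 to 0.134), without the intensity trend, with a trend in mean log odds, at 15 points and in a fit of the compared groups alone. In KO the PSI was 18.0, 11.9 and 10.2 at P10 against 3.9, 4.5 and 2.8 at P1, a difference of 9.61 points (adjusted p 0.00478), just under the 10 points asked.

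The 42-nt exon of Kif1b rose in WT between P10 and P30. Its PSI in WT was 25.8 and 15.5 at P1, 23.5 and 25.6 at P10, and 54.2, 59.1 and 53.5 at P30. The P1 and P10 libraries overlapped (3.93 points, adjusted p 0.693 by limma), and the P30 libraries lay above all of them, by 31.03 points over P10 (adjusted p 0.00144). In KO the PSI was 22.4, 27.9 and 27.1 at P10 and 19.3, 14.8 and 15.5 at P1, higher at P10 without overlap but not called. A 78-nt acceptor choice (75.7 at P30, 55.9 at P10) and a 4132-nt intron (71.0 and 48.3) of Kif1b were called as well, and the intron spans the 42-nt exon, so these events are not independent. Both calls ended whichever of the 5 libraries was left out (adjusted p 0.0577 to 0.226), and also without the intensity trend or with a trend in mean log odds.

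Kif1a transcripts held exon A more and exon B less often with age. In WT exon A had a mean PSI of 8.0 at P1, 17.0 at P10 and 19.5 at P30, and exon B of 50.6, 37.2 and 31.8. In KO exon A had a mean PSI of 17.7 at P10 against 8.5 at P1, and exon B of 38.1 against 45.0. Between P30 and P1 exon A rose by 11.46 points (adjusted p 0.000183 by limma) and exon B fell by 18.88 points (adjusted p 0.00119). Exon C, elsewhere in the gene, was at 65.1, 65.2 and 61.0 at P30, against 50.8 and 47.5 at P1, and rose by 14.65 points (adjusted p 0.0151), a call that ended without WT P1 library 8 or 9, without the intensity trend, with a trend in mean log odds and at 15 points. Exon A was likewise not called at 15 points. The 18-nt exon of Kif1b stayed between 73.9 and 84.0 in all 13 libraries. Of 7 kinesin exons of up to 27 nt, 4 were called between P30 and P1, against 35.2% of all such exons.

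**Figure D5:**
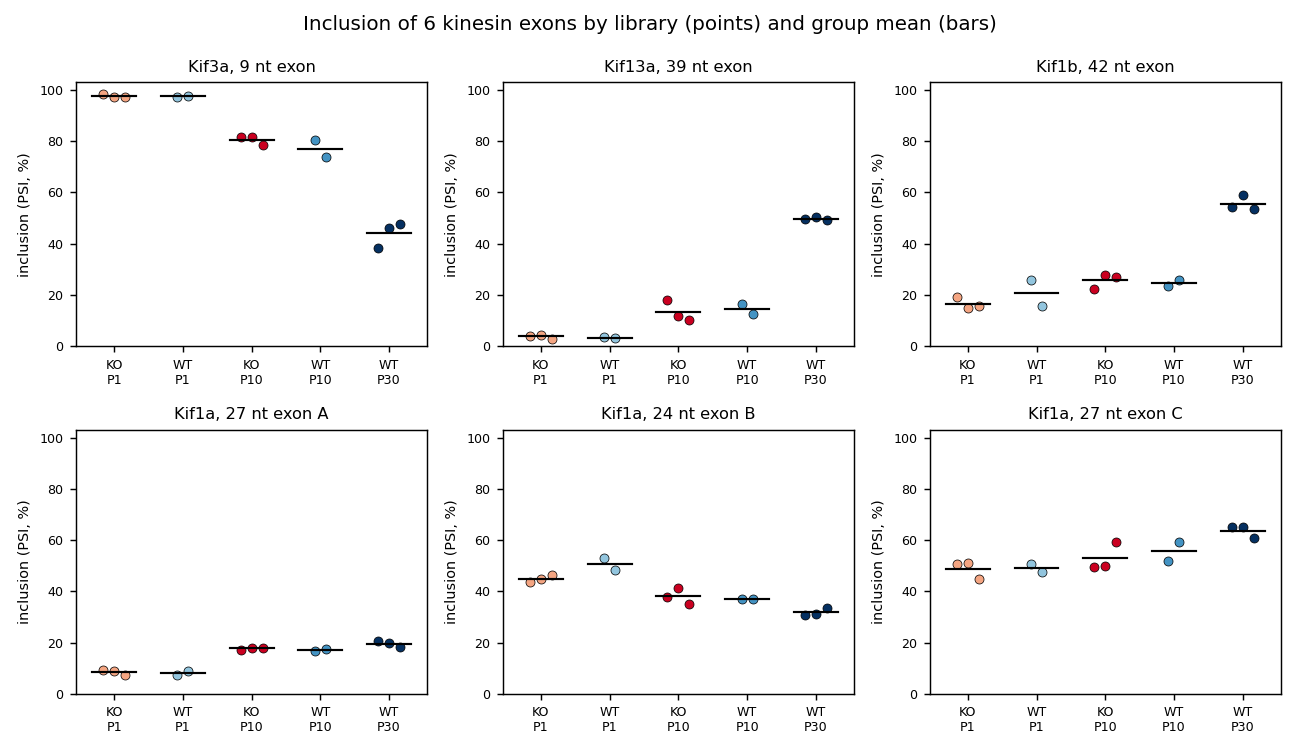
PSI in percent of the named kinesin exons by group, with each library as a point and KO left of WT at each age. Kif3a falls with age to 38.3 to 47.6 at P30 and Kif13a rises to 49.4 to 50.5, and for both exons the KO and WT libraries overlap at P1 and at P10.

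Between KO and WT no kinesin event was called. At P1 0 of 126 events were called, against 0.0242% of all events, and at P10 0 of 138, against 0.0284%. At an unadjusted p below 0.05 in limma 3 kinesin events passed at each age, against 4.59% of all events at P1 and 4.45% at P10. The smallest p at P1 belonged to a 255-nt exon of Kif1a, lower in KO by 3.12 points (unadjusted p 0.00307, adjusted p 0.686), and at P10 its difference was -2.35 points (unadjusted p 0.0257). The genotype effect differed between ages for 0 of 114 events, against 0% of all events. With 2 WT libraries at each age, small differences in PSI were not detectable.

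Changes between P10 and P1 were few in both genotypes. In WT 2 of 116 events were called, the exons of Kif3a and Kif13a, against 0.657% of all events. In KO 2 of 131 were called, against 0.857%. One was the Kif3a exon, and the other was a 415-nt intron of Kif23 with a PSI of 14.6 ± 4.7 at P10, against 1.5 ± 1.5 at P1 (SD, n = 3 each). In WT that intron was at 16.8 ± 8.2 at P10 (SD, n = 2) and had a mean of 1.5 at P1. The call of the Kif23 intron in KO ended without library 13, 15, 10, 11 or 12 (adjusted p 0.0845 to 0.164), without the intensity trend, with a trend in mean log odds, at 15 points and in a fit of the compared groups alone.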

How the data were processed

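RNA-seq of total RNA from mouse cerebellum was deposited as 2 tables over 13 libraries. The authors deposited gene expression as cRPKM, an RPKM corrected for mappable positions, and splicing as PSI in percent with a quality field of reads that include or skip each event, per the file headers. FastQC, Trimmomatic and mm9 are named in the submitters' processing notes, and the aligner is not given in the sources used here. Of 22667 gene rows 1114 held no value. The members, their roles and the lists of other genes were chosen with earlier results of these data known. Any member could be named, and values per library are given for Kif1b, for called members and for those with the smallest p.

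Expression was fitted with limma 3.58.1 in R 4.3.3 on log2(cRPKM + 1), in 1 model of the 5 groups with 8 residual degrees of freedom and an intensity trend, leaving out genes whose mean stayed under 1 cRPKM in all groups. Splicing was fitted with limma on log2 odds from the reads of the quality field (0.5 added to each side, at least 10 reads per library, mean PSI of 5 to 95), with a trend in mean log2 reads, and 30610 alternative site entries without length were left out. Values were required in 2 libraries of each group compared. Benjamini-Hochberg adjustment ran over all genes or events of a comparison. Exons were found in GRCm38 by their length and the lengths of the introns on both sides. The scripts were tested on simulated data. Depth in reads behind cRPKM is not in the table, so exon junction reads stand in for it. Alternatives were another pseudocount, filter, scaling, read minimum, set of groups and trend, the junction reads and leaving out each library. Tables were handled with Python 3.11.15.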

Additional observations from a re-analysis of the deposited data

How the results depend on the processing

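The counts of kinesins called depended on the setting mainly in the comparisons with few calls. Between P10 and P1 in KO 5 kinesins were called by cRPKM, against 10.2% of all genes, and 10 by junction reads, against 32.2%. There were 3 without a filter on low values, 3 with a filter of 5 cRPKM and 3 without the intensity trend. In a fit of the compared groups alone there were 0. In WT 0 were called between P10 and P1, against 4.05% of all genes, 1 without the trend and 7 by junction reads, against 23.7%. Junction reads called 21 kinesins between P30 and P10, against 44.2% of all genes, and cRPKM 11, against 14.7%. Between P30 and P1 they called 26, against 57.8%, and cRPKM 15, against 25.4%. Kif9 in KO between P10 and P1 changed sign by junction reads (-0.27). For splicing between P10 and P1, 2 events were called in WT and 2 in KO, and 1 in each without the trend, at 15 points of PSI, with a trend in mean log odds (chosen after seeing the data) or in a fit of the compared groups alone. For the other settings, and for leaving out a library, the share over all genes or events is not set beside the counts. Those counts are therefore no result about kinesins. The causes were not tested.

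Leaving out 1 library at a time gave 0 to 7 kinesins between P10 and P1 in KO, 8 to 11 between P30 and P10, 11 to 14 between P30 and P1, and 0 in every comparison of KO with WT. For events it gave 1 to 2 between P10 and P1 in both genotypes, 18 to 24 between P30 and P10 and 24 to 28 between P30 and P1. The 1 event was left in WT without library 8, 9 or 5 and in KO without library 13, 15 or 10. Where 1 library of a group remained, it was assumed to vary like the others. No paired analysis was possible because the groups share no replicate numbers. With 2 libraries in 2 of the groups, small differences cannot be detected, and PSI rests on few reads for mitotic genes at P30.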
